A study of Mus musculus with 9 samples.

Results

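Transcripts of 10 genes of insulin and insulin-like growth factor (IGF) signalling and of its FOXO branch were followed in a mouse pancreatic tumor cell line under deprivation. They were chosen by symbol: the receptors Insr and Igf1r, the adaptors Irs1 and Irs2, the transcription factors Foxo1, Foxo3 and Foxo4, and 3 genes that FOXO factors are known to activate, Pik3ip1, Fbxo32 and Gadd45a. All 10 were found among the 24493 rows of the table and all 10 passed the filter of at least 1 TPM in at least 3 libraries, which kept 12693 rows. TPM is transcript abundance per length, scaled to the same total in each library.

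The cells were the line 6620c1, collected under nutrient and oxygen deprivation at day 0, day 2 and day 14, with 3 samples a day and no other treatment. The column names of the table mark all 9 samples as WT, and the labels do not say what this refers to. The deprivation medium was DMEM that held amino acids at 20% of their usual concentration, glucose at 2.5 mM and only 0.5% serum from fetal calves. The labels give this medium for the day 0 samples too, and state neither the medium before day 0 nor the oxygen level. No sample was kept equally long in full medium, so the effects of time and of deprivation cannot be told apart. The labels name 1 cell line and do not say whether the samples were separate cultures, so the spread that p-values rest on is that between these samples and may be technical.

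Insulin and the IGFs bind receptor tyrosine kinases, which phosphorylate the IRS adaptors. These recruit the lipid kinase PI3K, and PI3K activates the kinase AKT. AKT phosphorylates FOXO factors, which then bind 14-3-3 proteins and stay out of the nucleus. When the signal is weak, FOXO factors enter the nucleus and switch on genes of growth arrest, protein breakdown and stress resistance, and in several mammalian tissues also the genes for the insulin receptor and IRS2.

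The libraries carried ductal keratins. The 6 epithelial markers summed to between 10800 and 11400 TPM at day 0, 5460 and 7570 on day 2, and 6790 and 8540 TPM at day 14, although Epcam, one of them, never passed 19.8 TPM. The sum hides different courses. Krt7, Krt8, Krt18 and Krt19 had lower means at day 14 than at day 0, as for Krt7 with 514 against 1513 TPM. Cdh1 and Epcam had higher ones, at 399 against 240 TPM and 14.1 against 2.23 TPM. The 5 acinar markers summed to at most 5.75 TPM in any library, the 5 islet markers to 1.46 TPM, the 3 endothelial markers to 0.979 TPM and the 5 fibroblast markers to 3.12 TPM. The leukocyte list summed to between 15.4 and 35.3 TPM, most of it from Mrc1, with Ptprc at most 0.515 TPM. The part of these shifts in the results below was not tested. The row Mir6236 took 22.5% of the TPM total of day 2 replicate 3, and elsewhere 8.27% to 14.6%, which lowers the other rows of that library by the constant total. In bulk RNA, fewer cells that express a gene and less RNA per cell cannot be told apart.

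At day 2, 9 of the 10 genes rose relative to day 0 and 0 fell (limma, adjusted p under 0.05). Among all tested genes 27.1% rose, 31.9% fell and 59.0% did either at that time. At day 14 the count was again 9 up and 0 down, beside 36.2% up, 18.8% down and 55.1% in either direction over all tested genes. Fold changes are differences of mean log2(TPM + 1). Their median over the 10 genes was 1.23 at day 2, beside -0.02 over all tested genes, and 1.05 at day 14, beside 0.22 over all. Both comparisons share the day 0 libraries. Fbxo32 passed the filter only through the days on which it was high, so it had to differ, and the counts describe these genes without testing them as a set. The gene without a call was Irs1 on both occasions.

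**Figure D1:**
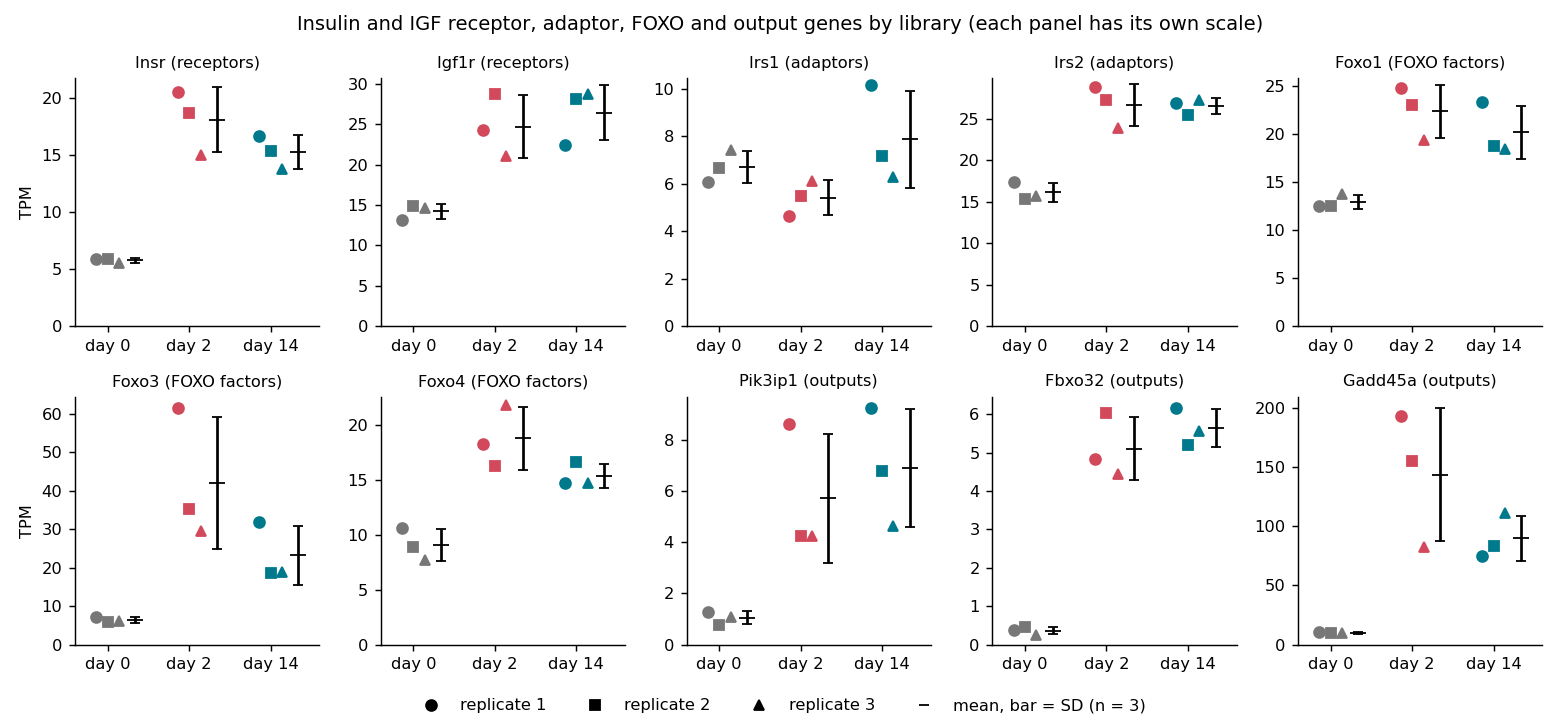
TPM of each of the 10 genes (vertical axis, scale differs by panel and starts at 0) at day 0, day 2 and day 14; symbols are replicates 1 to 3, and the bar beside them is the mean with its SD (n = 3). In all panels but Irs1, every day 2 and day 14 library lies above every day 0 library. The share of all tested genes that separate in this way was not computed. Of all tested genes, 27.1% were called higher at day 2 and 36.2% at day 14.

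Both receptor transcripts rose at day 2 and at day 14. Insr, which codes for the insulin receptor, stood at 5.86, 5.90 and 5.52 TPM at day 0, at 20.6, 18.7 and 14.98 on day 2, and at 16.7, 15.3 and 13.8 TPM at day 14. Neither the day 2 nor the day 14 group overlapped with day 0. Its log2 fold change was 1.49 (SE 0.14, limma, adjusted p = 2.16e-05) at day 2 against day 0 and 1.26 (SE 0.14, adjusted p = 0.000119) at day 14 against day 0. Igf1r, the receptor for IGF1 and IGF2, had 13.1, 14.9 and 14.6 TPM at day 0, 24.3, 28.8 and 21.1 on day 2, and 22.5, 28.1 and 28.7 TPM at day 14. Every day 2 and day 14 library was again above every day 0 library, with log2 fold changes of 0.75 (SE 0.14, limma, adjusted p = 0.00172) at day 2 and 0.85 (SE 0.14, adjusted p = 0.00116) at day 14.

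Irs2 was called higher at both times and Irs1 at neither, which does not show that the adaptors differed; their ratio is tested further on. Irs2, the IRS protein that carries much of the insulin signal in liver and beta cells, stood at 17.4, 15.3 and 15.7 TPM at day 0, 28.8, 27.2 and 23.9 on day 2, and 26.9, 25.5 and 27.3 TPM at day 14. The day 2 and day 14 values lay close together and above all of day 0, at a log2 fold change of 0.69 at both times (SE 0.11, limma, adjusted p = 0.000534 at day 2 and 0.000767 at day 14). Irs1, a main adaptor of the insulin receptor in muscle and fat, had 6.08, 6.67 and 7.42 TPM at day 0, 4.64, 5.50 and 6.12 on day 2, and 10.2, 7.18 and 6.28 TPM at day 14. Its groups overlapped with day 0 on both days. The log2 fold change was -0.27 (SE 0.18, limma, adjusted p = 0.216) at day 2 and 0.18 (SE 0.18, adjusted p = 0.406) at day 14, and the day 14 value was -0.08 under median-of-ratios scaling and -0.26 under quantile normalization.

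The upstream sequences of this adaptor pair are shown because both windows hold the same E-box. They are the 250 bases before the start in RefSeq (GRCm38.p6), read 5′ to 3′ on the gene's strand, for Irs1 at chr1:82291440-82291689 (minus strand) and Irs2 at chr8:11008930-11009179 (minus strand). Capitals mark CACGTG, the E-box, which is the same on both strands and contains ACGTG, the core of the hypoxia response element, on each strand.
Irs1: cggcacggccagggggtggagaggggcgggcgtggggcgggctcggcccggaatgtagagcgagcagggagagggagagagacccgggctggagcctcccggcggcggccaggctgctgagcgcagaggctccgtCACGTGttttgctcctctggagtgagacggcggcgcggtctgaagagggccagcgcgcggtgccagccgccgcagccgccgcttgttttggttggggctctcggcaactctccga
Irs2: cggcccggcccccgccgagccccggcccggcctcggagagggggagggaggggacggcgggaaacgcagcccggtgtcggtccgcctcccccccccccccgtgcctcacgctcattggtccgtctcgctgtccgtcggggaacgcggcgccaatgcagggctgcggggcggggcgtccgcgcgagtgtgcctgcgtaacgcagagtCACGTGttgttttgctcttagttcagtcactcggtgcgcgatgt
The E-box lies 115 bases before the start in Irs1 and 44 bases before it in Irs2. Among the 32851 RefSeq windows of this length, 6.02% held CACGTG and 16.6% held ACGTG on either strand. Windows were found for 7 of the 10 genes, and those for Irs1 and Irs2 were the only ones of the 7 that held CACGTG or ACGTG. Insr, Foxo4 and Fbxo32 had no window and were not searched. A match of letters is a description and not a binding site.

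All 3 FOXO transcripts rose, with the largest fold change for Foxo3. Foxo3, which codes for a FOXO factor tied to autophagy and muscle loss in mice, stood at 7.24, 5.79 and 6.08 TPM at day 0, at 61.6, 35.1 and 29.5 on day 2, and at 32.0, 18.6 and 18.9 TPM at day 14. Replicate 1 was the highest library on each day, and no day 2 or day 14 library reached down to day 0. The log2 fold change was 2.48 (SE 0.28, limma, adjusted p = 7.92e-05) at day 2 against day 0, higher than 98.9% of all tested genes, and 1.67 (SE 0.28, adjusted p = 0.00113) at day 14 against day 0. Foxo1, the factor best known for its control by insulin in liver, had 12.5, 12.5 and 13.7 TPM at day 0, 24.7, 23.0 and 19.3 on day 2, and 23.3, 18.8 and 18.4 TPM at day 14. Its groups did not overlap with day 0 either, at log2 fold changes of 0.74 (SE 0.13, limma, adjusted p = 0.00121) at day 2 and 0.60 (SE 0.13, adjusted p = 0.00466) at day 14. Foxo4, the X-linked member of the family, had 10.6, 8.90 and 7.66 TPM at day 0, 18.3, 16.2 and 21.8 on day 2, and 14.7, 16.6 and 14.7 TPM at day 14. It was higher in all day 2 and day 14 libraries, and the log2 fold change reached 0.98 (SE 0.15, limma, adjusted p = 0.00047) at day 2 and 0.71 (SE 0.15, adjusted p = 0.00351) at day 14. The day 14 call of Foxo4 was lost under median-of-ratios scaling (0.43, limma, adjusted p = 0.0639) and quantile normalization (0.39, adjusted p = 0.0988).

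**Figure D2:**
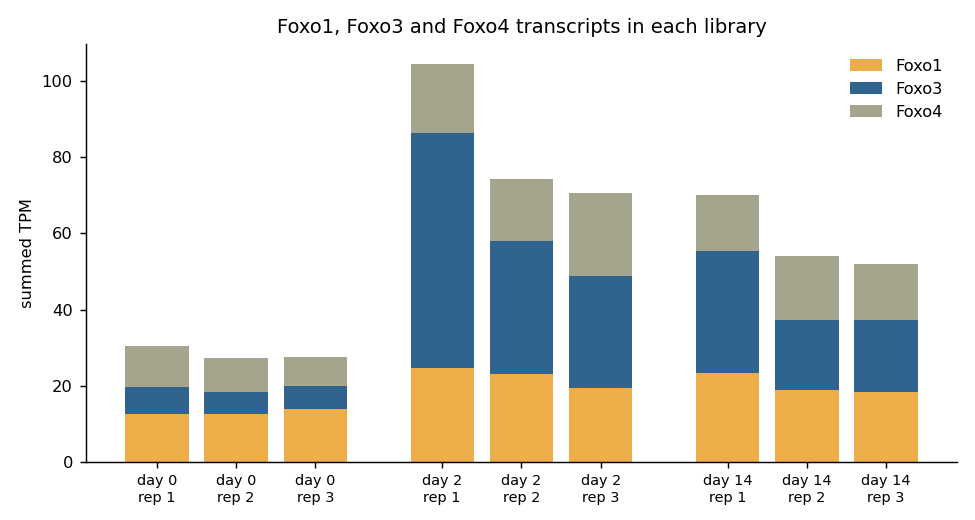
Summed TPM of Foxo1, Foxo3 and Foxo4 (vertical axis, stacked from 0) in each of the 9 libraries, ordered by day and replicate. The sum lies between 27.1 and 30.4 TPM at day 0, between 70.7 and 104.6 at day 2 and between 52.0 and 70.0 at day 14, and Foxo3 makes up 22.4% of it on average at day 0 and 49.3% at day 2.

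The 3 FOXO genes among the 10 rose by different folds, and their shares of the FOXO sum moved with them. Foxo1, Foxo3 and Foxo4 together summed to 28.3 ± 1.76, 83.2 ± 18.6 and 58.7 ± 9.89 TPM in day order (SD, n = 3). Foxo3 made up 22.4% ± 1.29 of that sum at day 0, 49.3% ± 8.75 at day 2 and 38.8% ± 5.98 at day 14. Foxo1 made up 45.7% ± 4.42 at day 0, 27.3% ± 3.63 at day 2 and 34.5% ± 1.06 at day 14. The fourth family member, Foxo6, was left out of the sum and had means of 4.23 ± 0.777, 2.72 ± 0.997 and 2.49 ± 0.493 TPM in day order. Foxo6 did not rise: its log2 fold change was -0.51 at day 2 (limma, adjusted p = 0.0584) and -0.58 at day 14 (adjusted p = 0.039). The day 14 call was kept under 3 of 4 other scalings. It was lost without any 1 of day 0 replicates 1, 2 and 3 and day 14 replicates 2 and 3.

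The ratio of 2 genes within a library does not depend on any factor that scales the whole library. Igf1r was 2.24 to 2.64 times as abundant as Insr at day 0, 1.18 to 1.54 times at day 2 and 1.35 to 2.09 times at day 14. The log2 ratio of Igf1r over Insr was lower than at day 0 by a difference of -0.85 at day 2 and -0.51 at day 14, without overlap. Irs2 was 2.12 to 2.86 times as abundant as Irs1 at day 0, 3.90 to 6.22 times at day 2 and 2.65 to 4.34 times at day 14. Foxo1 was 1.73 to 2.26 times Foxo3 at day 0, 0.402 to 0.654 times at day 2 and 0.730 to 1.01 times at day 14, so the order of the pair turned at day 2. Foxo4 over Foxo3 had mean log2 ratios of 0.50, -1.10 and -0.55 in day order. Of the 12 comparisons of 4 ratios, 8 separated the groups without overlap and had an exact two-sided permutation p of 0.1, the smallest that 3 against 3 libraries allow, or 0.15 adjusted over the 12. The comparisons that overlapped were Igf1r over Insr, Irs2 over Irs1 and Foxo4 over Foxo3 at day 14 against day 2, and Irs2 over Irs1 at day 14 against day 0.

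**Figure D3:**
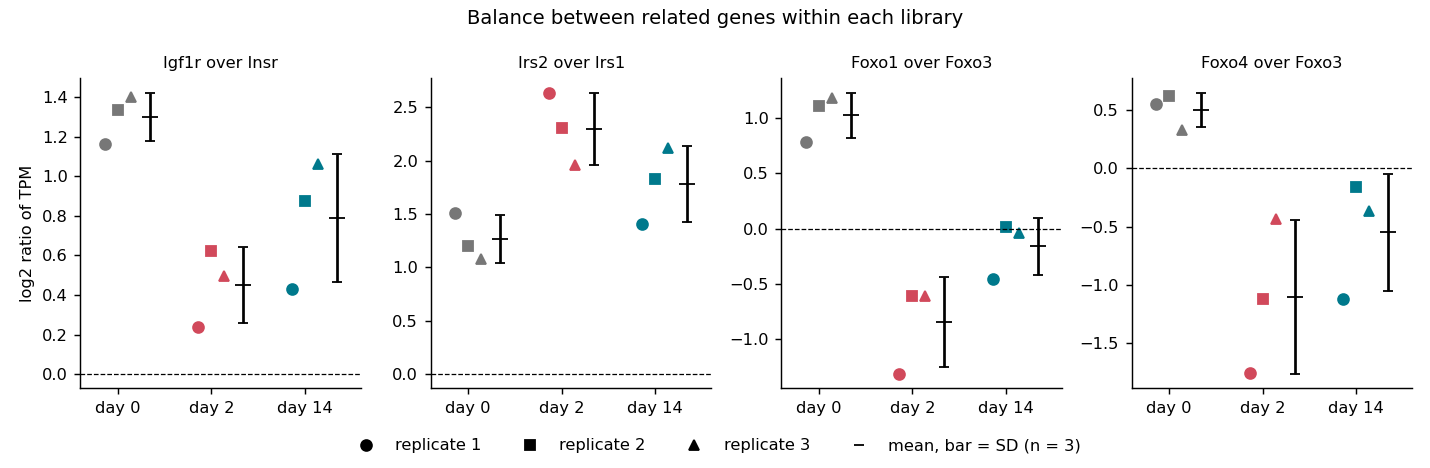
Log2 ratio of TPM for 4 gene pairs (vertical axis, scale differs by panel; the dashed line is equal abundance) at day 0, day 2 and day 14; symbols are replicates, and the bar is the mean with its SD (n = 3). Foxo1 over Foxo3 is above the line in all day 0 libraries and below it in all day 2 libraries.

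All 3 output genes rose at both times. Gadd45a, a stress gene that codes for a brake on the G2 to M transition, stood at 10.7, 9.42 and 9.59 TPM at day 0, 193, 155 and 82.6 on day 2, and 74.9, 82.9 and 111 TPM at day 14. The day 0 libraries were within 1.14-fold of each other, while those of day 2 spread over 2.34-fold. The log2 fold change was 3.64 (SE 0.28, limma, adjusted p = 7.32e-06) at day 2 and 3.03 (SE 0.28, adjusted p = 5.38e-05) at day 14, and at day 2 it was higher than that of 99.7% of tested genes. Fbxo32, which codes for the muscle ubiquitin ligase atrogin-1, had 0.377, 0.448 and 0.258 TPM at day 0, 4.84, 6.03 and 4.44 on day 2, and 6.16, 5.19 and 5.57 TPM at day 14. All day 0 values lay under 1 TPM, so the fold change on the log2(TPM + 1) scale, 2.16 at day 2 and 2.29 at day 14 (SE 0.14 for each, limma, adjusted p = 3.34e-06 and 1.2e-05), understates the ratio of the means, which was 14.1 and 15.6. Those tests were favoured by the filter, because Fbxo32 passed it only through the days on which it was high. The ratio rests on low day 0 values that have no counting error attached. Pik3ip1, a membrane protein that inhibits PI3K, had 1.28, 0.767 and 1.09 TPM at day 0, 8.62, 4.24 and 4.25 on day 2, and 9.25, 6.79 and 4.64 TPM at day 14. Its lowest day 2 or day 14 library was above its highest day 0 library, at log2 fold changes of 1.66 (SE 0.28, limma, adjusted p = 0.000911) at day 2 and 1.91 (SE 0.28, adjusted p = 0.000575) at day 14. These too understate the ratios of the means, which were 5.45 and 6.59. Only 2 day 0 libraries of Pik3ip1 reached 1 TPM, so the later days, on which it was high, helped it to pass the filter.

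**Figure D4:**
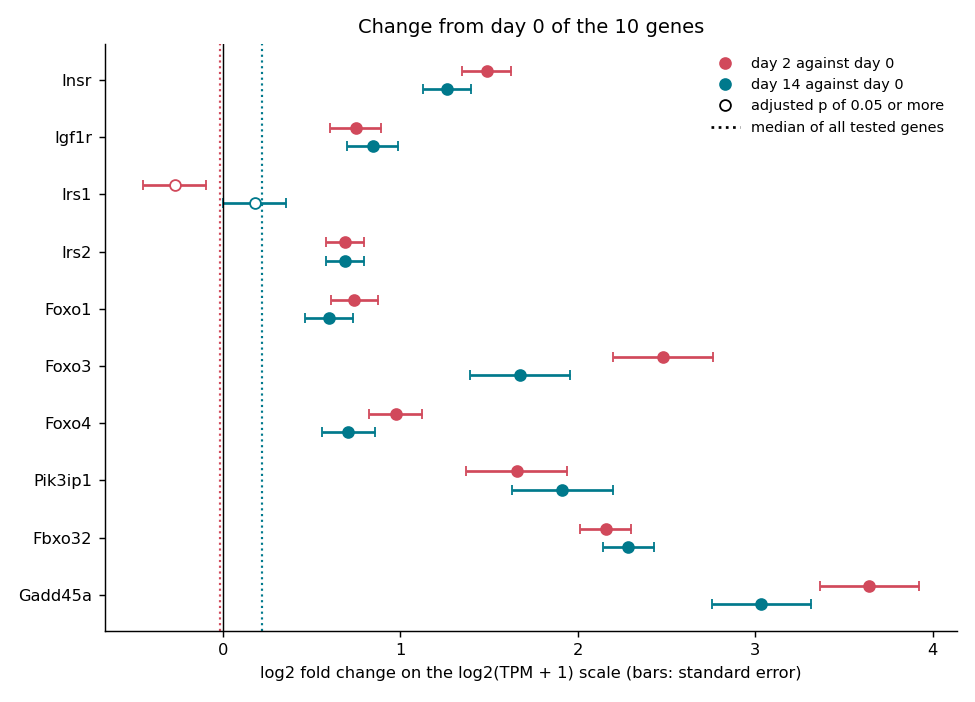
Log2 fold change on the log2(TPM + 1) scale (horizontal axis) of each gene at day 2 and at day 14, each against day 0, with the limma standard error; open symbols have an adjusted p of 0.05 or more, and dotted lines are the medians of all tested genes. Irs1 is the gene with open symbols, and Gadd45a lies farthest to the right at both times.

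Upstream windows of Foxo3, Pik3ip1 and Gadd45a, which had fold changes among the highest of the 10 genes, are shown because FOXO factors are known to bind GTAAACA. They lie at chr10:42276696-42276945 for Foxo3 (minus strand), chr11:3330481-3330730 for Pik3ip1 (plus strand) and chr6:67037408-67037657 for Gadd45a (minus strand), in the same build and length as above. They are printed without capitals, because they hold neither GTAAACA nor CACGTG or ACGTG on either strand.
Foxo3: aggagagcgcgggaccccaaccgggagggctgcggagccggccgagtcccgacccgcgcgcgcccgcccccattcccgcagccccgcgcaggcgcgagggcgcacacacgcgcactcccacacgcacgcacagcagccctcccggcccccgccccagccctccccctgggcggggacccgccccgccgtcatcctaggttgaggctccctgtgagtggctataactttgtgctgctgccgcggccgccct
Pik3ip1: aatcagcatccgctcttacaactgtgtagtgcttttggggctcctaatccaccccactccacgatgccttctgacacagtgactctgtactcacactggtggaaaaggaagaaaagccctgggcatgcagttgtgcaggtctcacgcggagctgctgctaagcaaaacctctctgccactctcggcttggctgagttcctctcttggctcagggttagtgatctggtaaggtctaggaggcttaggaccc
Gadd45a: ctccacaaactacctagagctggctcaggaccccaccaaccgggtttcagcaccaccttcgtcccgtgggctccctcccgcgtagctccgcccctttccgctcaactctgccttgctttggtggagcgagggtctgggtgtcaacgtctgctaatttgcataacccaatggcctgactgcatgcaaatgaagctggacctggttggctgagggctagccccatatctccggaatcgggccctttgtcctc
GTAAACA, searched on both strands and overlapping with neither other motif, was in none of the 7 windows and in 3.17% of all 32851. The G and C content of the 7 windows ran from 53.6% to 77.6%, beside a median of 52.4% over all windows. The search covers only the letters of these short windows and leaves out Insr, Foxo4 and Fbxo32.

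Ranked by level per length, the genes changed places. At day 0 Irs2 was the most abundant at 16.1 TPM and did not overlap with Igf1r, the next at 14.2 TPM. Foxo1 at 12.9 TPM followed and overlapped with Igf1r, and Gadd45a, Foxo4, Irs1, Foxo3 and Insr lay between 9.92 and 5.76 TPM, above Pik3ip1 and Fbxo32. At day 2 Gadd45a led at 143.5 TPM and Foxo3 came second at 42.1 TPM, neither overlapping with its lower neighbour. Irs2, Igf1r, Foxo1, Foxo4 and Insr followed with neighbours that overlapped, from 26.6 to 18.1 TPM. At day 14 Gadd45a still led at 89.6 TPM, Irs2, Igf1r, Foxo3 and Foxo1 formed a run of overlapping neighbours from 26.6 to 20.2 TPM, and Irs1, Pik3ip1 and Fbxo32 came last with 7.88, 6.89 and 5.64 TPM.

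The comparison of day 14 with day 2 asked whether the levels changed further during prolonged deprivation. None of the 10 genes passed (limma, adjusted p under 0.05), while 31.2% of all tested genes did, 27.4% higher and 3.79% lower. Foxo3 and Irs1 had an unadjusted p under 0.05. Day 14 libraries averaged 23.2 ± 7.62 TPM for Foxo3, and day 2 libraries 42.1 ± 17.1 TPM (SD, n = 3 each). The log2 difference was -0.81 (SE 0.28, limma, adjusted p = 0.0565). For Irs1 the day 14 mean was 7.88 ± 2.03 TPM, against a day 2 mean of 5.42 ± 0.748 TPM, a log2 difference of 0.45 (SE 0.18, limma, adjusted p = 0.081), and the groups did not overlap. The median of the 10 genes was -0.07, beside 0.25 over all tested genes. Median-of-ratios scaling called 4 of the genes lower at day 14 (Insr, Foxo1, Foxo3 and Gadd45a), and quantile normalization called these and Irs2 and Foxo4. Without day 2 replicate 3 Foxo3 and Gadd45a were called lower, and without day 14 replicate 1 Foxo3 was.

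Within a day, the libraries did not rank alike for all genes. Replicate 1 was the highest library for 6 of the 10 genes at day 2 and for 6 at day 14, with Insr, Foxo1, Foxo3 and Pik3ip1 among them on both days. Day 2 replicate 3, the library with the largest Mir6236 share, was the lowest for 7 genes and the highest for Irs1 and Foxo4. The part of that share in these values was not tested beyond removal of the row, which left the calls of all 10 genes against day 0 in place.

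Further genes of the pathway were taken from 5 lists, written with earlier results of these data known. No list was tested as a set, so the shares only describe it. The counts of these lists stand beside all tested genes, of which 27.1% rose and 31.9% fell at day 2, and 36.2% rose and 18.8% fell at day 14. The table listed next to no ligand: Ins1 was at 0 in all 9 libraries, Igf1 reached at most 0.0974 TPM, Igf2 at most 1.13 TPM and Ins2 at most 1.46 TPM, the last 3 at day 14. Of the list of ligands, binding proteins and their proteases, 7 of 18 genes were tested, and 4 (57.1%) rose and 0 fell at day 2. Of the 7, Stc1 and Igfbp5 had no day 0 library at 1 TPM and were tested only through later days, so their rises were favoured by the filter. Igfbp3, the main IGF carrier of serum, had a day 2 mean of 344 ± 152 TPM, against 71.1 ± 23.2 TPM at day 0 (SD, n = 3). Its call at day 2 (2.21, limma, adjusted p = 0.00141) held without each library, while that at day 14 (1.19, adjusted p = 0.0337) was lost without any 1 of day 0 replicates 1 and 2, day 2 replicate 3 and day 14 replicates 2 and 3, with adjusted p up to 0.114. The day 14 call was kept under 3 of 4 other scalings (limma, adjusted p up to 0.0888). Stc1 and Stc2, which inhibit the proteases that cleave IGF binding proteins, also rose. Stc1 averaged 0.342 ± 0.0116, 5.12 ± 0.941 and 9.05 ± 0.401 TPM at day 0, day 2 and day 14, and Stc2 averaged 12.2 ± 4.49, 43.3 ± 11.4 and 60.6 ± 4.72 TPM. The call of Igf2r, which clears IGF2, at day 2 (0.50, limma, adjusted p = 0.0427) was lost without any 1 of day 0 replicates 1, 2 and 3, day 2 replicates 1 and 2 and day 14 replicate 2, with adjusted p up to 0.132. At day 14, 5 (71.4%) rose, with Stc1 and Igfbp5 among them, and 1 (14.3%) fell. The one that fell was Igfbp4, an inhibitory binding protein, with 443 ± 123 TPM in day 14 libraries, against 658 ± 15.6 TPM in those of day 0 (log2 fold change of -0.61, limma, adjusted p = 0.0428). That call was lost under quantile normalization, without the filter, without the variance trend and without any 1 of day 0 replicates 1, 2 and 3, day 2 replicate 3 and day 14 replicates 1 and 2, with adjusted p up to 0.131.

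Of 15 tested adaptors and feedback proteins, 4 (26.7%) rose and 5 (33.3%) fell at day 2, and 6 (40.0%) rose and 3 (20.0%) fell at day 14, shares near those of all tested genes. Sh2b2, an adaptor of the insulin receptor, averaged 0.974 ± 0.187, 6.25 ± 2.13 and 1.201 ± 0.382 TPM over the 3 days in order, and rose at day 2 (log2 fold change of 1.84, limma, adjusted p = 0.000147). Gab1, a docking protein for PI3K, had the largest rise of the list at day 14, with 6.51 ± 0.954 TPM against 0.725 ± 0.152 TPM at day 0 (2.12, limma, adjusted p = 2.65e-05). It too had no day 0 library at 1 TPM and was tested only through the days on which it was high. Socs1, an inhibitor of cytokine and insulin signalling, had the largest fall at both times, with means of 17.96 ± 1.62, 4.99 ± 2.30 and 6.87 ± 1.05 TPM at day 0, day 2 and day 14 (SD, n = 3; limma, adjusted p = 0.000583 and 0.00417).

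Of 28 tested genes of PI3K, AKT and the mTOR complexes, 11 (39.3%) rose and 9 (32.1%) fell at day 2, and 12 (42.9%) rose and 2 (7.14%) fell at day 14. Of the 28, 1 had no day 0 library at 1 TPM. It was called higher at day 2, a rise favoured by the filter, and was not called higher at day 14. The day 2 split was 15 and 6 under quantile normalization and 14 and 6 after removal of the 20 most abundant rows, and the day 14 split was 8 and 8 under median-of-ratios scaling and 9 and 5 under quantile normalization. Trib3, a pseudokinase reported to bind AKT, averaged 3.77 ± 2.31, 117 ± 64.7 and 91.1 ± 29.2 TPM in day order, the largest rise of the list (limma, adjusted p = 7.3e-05 and 0.000172). Akt1, which codes for a form of AKT, fell at both times, with means of 260.4 ± 4.89, 120.3 ± 9.98 and 166 ± 14.5 TPM in day order (limma, adjusted p = 1.81e-05 and 0.000659). Pik3r3, a regulatory subunit of PI3K, had the largest fall at day 2, with 0.881 ± 0.175 TPM against 3.14 ± 0.228 TPM at day 0 (limma, adjusted p = 0.000421). Rictor, the subunit that defines the mTOR complex that phosphorylates AKT and is named here after its values were seen, rose to day 2 and day 14 means of 27.1 ± 4.47 and 21.0 ± 1.23 TPM, against 6.84 ± 0.505 TPM at day 0 (limma, adjusted p = 6.45e-06 and 5.38e-05). Other subunits of that complex did not move alike. At day 2 Mlst8 (-0.72, limma, adjusted p = 0.000544) and Mapkap1 (-0.41, adjusted p = 0.0208) fell, while Mtor rose (0.42, adjusted p = 0.0145). The Mapkap1 call was kept under 2 of 4 other scalings, and the Mtor call was lost without day 0 replicate 1. Neither Mlst8 nor Mapkap1 was called at day 14.

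Of 21 tested FOXO regulators, 4 (19.0%) rose and 11 (52.4%) fell at day 2, and 4 (19.0%) rose and 7 (33.3%) fell at day 14. The day 2 split was 6 and 9 under quantile normalization, and only 2 rose without any 1 of day 0 replicates 1 and 2 and day 2 replicates 1 and 2. The day 14 split was 3 and 12 under median-of-ratios scaling. Skp2, the ubiquitin ligase subunit that marks FOXO1 for breakdown, fell at both times, with means of 22.8 ± 2.07, 3.58 ± 0.788 and 6.76 ± 1.14 TPM in day order (SD, n = 3; limma, adjusted p = 4.53e-06 and 9.48e-05). Ep300, an acetyltransferase that modifies FOXO factors, rose, with means of 18.8 ± 1.74, 36.2 ± 4.50 and 39.3 ± 1.74 TPM in day order (limma, adjusted p = 0.000202 and 0.000169).

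Of 23 further tested FOXO targets, 18 (78.3%) rose and 1 (4.35%) fell at day 2, and 19 (82.6%) rose and 0 fell at day 14. Their median log2 fold changes were 1.33 and 1.39, beside -0.02 and 0.22 over all tested genes. This list too was written with earlier results of these data known, and whether FOXO factors drove these rises was not tested. Of the 23, 2 had no day 0 library at 1 TPM, and 1 of these was called higher at each time. Bnip3, a mitophagy receptor that low oxygen also induces, rose most, with means of 5.32 ± 1.95, 604 ± 64.9 and 317 ± 14.8 TPM in day order (SD, n = 3; limma, adjusted p = 1.88e-07 and 1.22e-06). The one that fell was Sod2, the mitochondrial superoxide dismutase, which averaged 21.8 ± 0.515, 12.1 ± 1.89 and 20.8 ± 1.47 TPM in day order (day 2 against day 0, -0.81, limma, adjusted p = 0.000465). The liver and muscle targets Trim63, Pck1 and G6pc stayed under the filter.

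**Figure D5:**
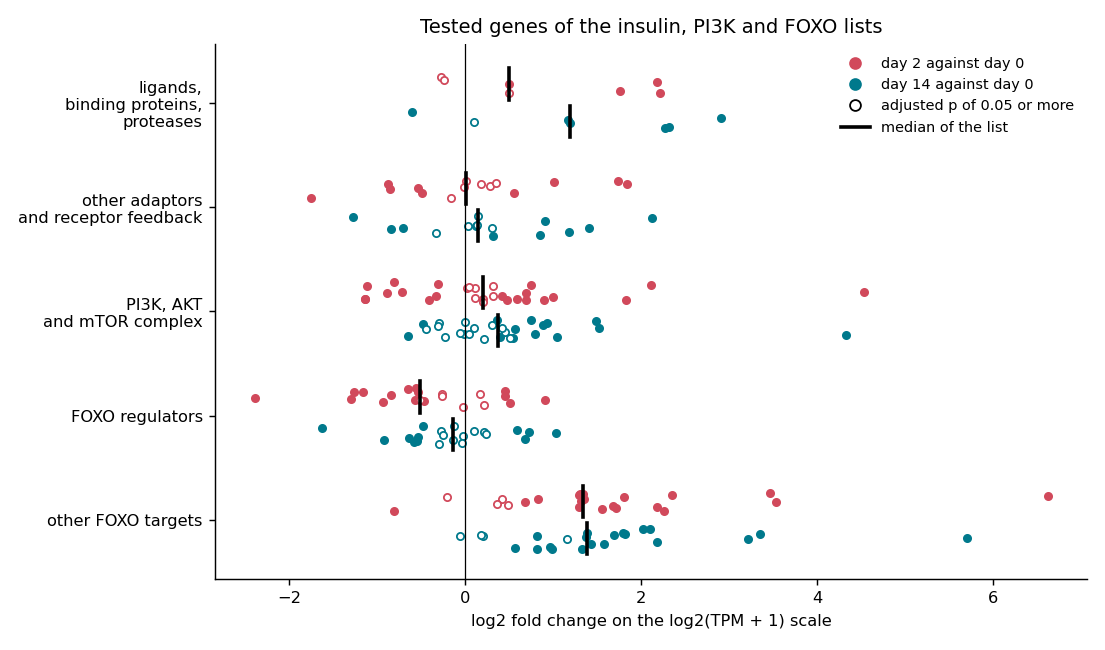
Log2 fold change on the log2(TPM + 1) scale (horizontal axis) of each tested gene in 5 lists at day 2 and at day 14, each against day 0; filled points have an adjusted p under 0.05, vertical jitter has no meaning, and black bars are list medians. The medians of the other FOXO targets are 1.33 and 1.39, and those of the FOXO regulators are -0.51 and -0.14. The lists were written with earlier results of these data known.

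For each gene the row most like it over the 9 libraries was taken among 8582 named genes with a mean of at least 10 TPM on at least 1 day. Pearson's r on log2(TPM + 1) was 0.997 for Insr with Kdm7a, 0.993 for Foxo3 with Fndc3a, 0.997 for Fbxo32 with Smim14, 0.996 for Gadd45a with Ppme1 and 0.997 for Pik3ip1 with Akr7a5. It was 0.990 for Igf1r with Xrn1, 0.991 for Irs2 with Ip6k1, 0.992 for Foxo1 with Zfp655 and 0.984 for Foxo4 with Frat1. The lowest best match was that of Irs1, 0.925 with Dapp1, whose means were 7.36 ± 0.466, 5.54 ± 0.487 and 10.7 ± 2.98 TPM in day order (SD, n = 3). The 9 points fall into 3 days and share their libraries, so these values describe shape across the days and not the size of the change. Smim14 went from a mean of 54.3 TPM at day 0 to 118 TPM at day 2, beside 0.361 and 5.10 TPM for Fbxo32. Kdm7a went from 0.643 to 10.5 TPM, beside 5.76 and 18.1 TPM for Insr.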

How the data were processed

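RNA was sequenced from 9 samples of the line 6620c1. The deposited values are gene TPM. Transcripts were quantified with Salmon, per the submitters' processing notes, and each library was checked to sum to 1000000 or within 1 of it. The sources used here do not state Salmon's version or index, the genome build or the annotation. TPM keep no read totals, so depth is unknown and no counting interval is given. Values were log2(TPM + 1). Rows with at least 1 TPM in at least 3 libraries were fitted with a mean per day in limma 3.58.1 (R 4.3.3, moderated variances with a trend), with two-sided p-values and Benjamini-Hochberg adjustment over every row tested. The fit was tested on simulated data. Ratios were compared with exact permutation tests (scipy 1.17.1). The genes and lists were chosen with earlier results of these data known. List genes were named by a rule: the largest rise and fall called at each day against day 0, all calls where 5 or fewer were called, and the most similar row. Igf1, Ins1, Ins2, Igf2, Igfbp5, Rictor, Mlst8, Mapkap1, Mtor, Foxo6, Akt2, Deptor and the 14-3-3 genes were named after their values were seen. Alternatives were pseudocounts of 0.1 and 5, other filters and scalings, no trend, a replicate block, only the groups compared and each library left out. Removal of the most abundant row and the alternatives for the lists were added after the data were seen. Upstream windows are the 250 bases before the start in RefSeq's GRCm38.p6. Figures were drawn with matplotlib 3.10.9.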

Additional observations from a re-analysis of the deposited data

Results flagged for a closer look

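The log2 fold change of day 14 against day 2 compares the 2 later times directly. It passed for 8 of the 15 list genes named by rule (limma, adjusted p under 0.05). These were named for their changes against day 0, in comparisons that share the day 2 and day 14 libraries, so their count is not read against the 31.2% of all tested genes. It was -1.69 for Sh2b2, -0.92 for Bnip3, 0.74 for Sod2 and 1.35 for Pik3r3, calls that 4 of 4 other scalings kept. Day 14 libraries averaged 3.85 ± 0.969 TPM for Pik3r3, and day 2 libraries 0.881 ± 0.175 TPM (SD, n = 3 each). It was 0.73 for Stc1 and 0.76 for Skp2, each called under 3 of 4 other scalings, 0.46 for Akt1, called under 2 of 4, and 0.67 for Igf2r, called under 1 of 4. The Igf2r call was also lost without any 1 of day 2 replicates 2 and 3 and day 14 replicates 1 and 2, with adjusted p up to 0.0845. Among genes named after their values were seen or for their likeness to a member, the difference passed for Igfbp5 at 1.82, Sfn at 1.52, Deptor at -0.59, Mlst8 at 0.43 and Dapp1 at 0.81. The Mlst8 call was kept under 1 of 4 other scalings. It was lost without any 1 of day 2 replicate 1 and day 14 replicates 2 and 3. Igfbp5 was tested only through its day 14 libraries.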

How the results depend on the processing

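Against day 0, the 9 genes called higher at day 2 stayed called under every alternative run, and so did those at day 14 except Foxo4 under median-of-ratios scaling and quantile normalization. Other scalings moved the median of all genes at day 14 against day 0, 0.22 here, to -0.05 (median of ratios) and -0.02 (quantile), and the split of 4601 higher and 2389 lower genes to 3115 and 4024, and 2843 and 3363. At day 2 against day 0 removal of the 20 most abundant rows gave 4425 and 3442, beside 3438 and 4046. At day 14 against day 2 the split of 3474 and 481 became 1585 and 1487 (median of ratios) and 1470 and 1905 (quantile). There the count of members called, 0, became 4 lower under median-of-ratios scaling, 6 lower under quantile normalization, and 1 lower (Foxo3) after removal of the 20 most abundant rows or of the most abundant row. Leaving out 1 library gave 0 to 2 members called in that comparison. With only the groups compared, 2616 genes passed there, beside 3955, and 18 list genes, beside 28. Signs turned for values near 0 that were not called. For Irs1 at day 14 against day 0 they were -0.0797 (median of ratios) and -0.26 (quantile). At day 14 against day 2 they were -0.18, -0.20 and -0.0242 for Igf1r (median of ratios, quantile, removal of 20 rows), -0.11 and -0.28 for Fbxo32 and -0.13 for Pik3ip1 (quantile). Leaving out 1 library gave -0.0753 to 0.0562 for Irs2 there and -0.0091 to 0.207 for Igf1r. The cause was not tested. The 4 ratios kept their direction under all alternatives run.

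Over all tested genes, deviations from the day means gave no clear pairing by replicate number. Correlations of same-numbered samples ran from -0.07 to 0.32, the highest for replicate 1 at day 2 and day 14. Of 9 samples, 4 correlated best with their own number. The check cannot show whether same-numbered samples shared effects on single genes. With the replicate block 1 member, Foxo3, was called lower at day 14 against day 2 (-0.81, SE 0.16 beside 0.28 without the block, limma, adjusted p = 0.00993). The member counts against day 0 did not move. TPM keep no depth, so low genes such as Fbxo32 and Pik3ip1 at day 0 have no counting error attached.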

Other observations

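Akt2, which codes for a kinase that insulin signalling activates, fell at day 14, to 31.8 ± 2.08 TPM against 44.7 ± 3.41 TPM at day 0 (SD, n = 3; limma, adjusted p = 0.00475); its smaller change at day 2 (-0.31, adjusted p = 0.0308) was called under 1 of 4 other scalings and lost without any 1 of day 0 replicates 1 and 2 and day 2 replicates 1 and 3, with adjusted p up to 0.108. The mTOR inhibitor gene Deptor averaged 1.86 ± 0.177, 11.4 ± 0.195 and 7.24 ± 0.981 TPM in day order, and its rise passed at both times (limma, adjusted p = 1.83e-06 and 3.36e-05).

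Genes for 14-3-3 proteins, which hold phosphorylated FOXO factors in the cytoplasm, were looked at after their values were seen, and 31.9% of all tested genes fell at day 2. These 7 genes belong to the list of FOXO regulators above, so their calls are counted there too. Of the 7, Ywhab, Ywhae, Ywhah, Ywhaq and Sfn fell at day 2 (limma, adjusted p from 7.79e-05 to 0.00804), and Ywhag and Ywhaz had log2 fold changes of 0.17 and -0.26 and did not pass then, although Ywhag passed as higher under 2 of 4 other scalings. Ywhah fell to 179 ± 8.62 TPM at day 2, against 324 ± 20.01 TPM at day 0. Sfn averaged 8.28 ± 1.34, 2.77 ± 0.349 and 9.84 ± 0.964 TPM in day order. The day 2 calls of Ywhab, Ywhae and Ywhaq were lost under 1 of 4 other scalings, with adjusted p up to 0.71. At day 14 Ywhae (-0.54, limma, adjusted p = 0.0137), Ywhah (-0.64, adjusted p = 0.000621) and Ywhaz (-0.48, adjusted p = 0.00849) were called lower. The Ywhaz call was kept under 3 of 4 other scalings. Ywhab, Ywhag, Ywhaq and Sfn were not called at day 14. Over all tested genes 18.8% fell at that time.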
